A study of Homo sapiens with 17 samples.

Results

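The replication-dependent histone genes code for the histones that are made while DNA is copied. They were taken as every probe set whose single gene symbol follows the naming scheme of the H2A, H2B, H3 and H4 cluster genes or is a linker histone gene from H1-1 to H1-6. The rule found 61 genes among the 17687 genes with a single symbol, each read by 1 probe set: 6 for the linker histone H1, 14 for H2A, 17 for H2B, 9 for H3 and 15 for H4. By the RefSeq annotation they lie in runs of neighbours: 49 on chromosome 6 in runs of 32, 5 and 12, 11 on chromosome 1 in runs of 9 and 2, and H4C16 alone on chromosome 12.

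In a dividing cell these genes are transcribed mainly in S phase, under control of cyclin E with CDK2 and the coactivator NPAT. Their short, intron-free mRNAs end in a stem-loop bound by SLBP instead of a poly(A) tail, and they are degraded when DNA synthesis stops. Many members code for identical or near-identical proteins from near-identical mRNAs, so single probe sets can read RNA of several members, and values gene by gene are uncertain. This holds above all for the duplicated pairs H2AC18 and H2AC19, and H4C14 and H4C15. The labelling kit named in the labels primes along whole transcripts and so can pick up RNA without a poly(A) tail.

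The 17 arrays measured log2 signal in human breast cell lines grown for 24 h and then treated for 48 h. In MDA-MB-231, a triple-negative breast cancer line, the groups were Maraviroc at IC20 and at IC50, DZH_2 at IC20 and at IC50, and the solvents ethanol (for Maraviroc) and DMSO (for DZH_2), on 2 arrays apiece, beside 1 array of untreated cells. DZH_2 is known here only by its code name. The labels IC20 and IC50 stand for doses that cause 20% and 50% inhibition, and the amounts were not given in the sources used here. A further 4 arrays are titled MCF10, a non-tumorigenic mammary epithelial line, with 1 array each for DZH_2 at IC20, DZH_2 at IC50, DMSO and untreated cells. The cell line field of those 4 arrays says MDA-MB-231, and the titles were followed. The labels do not say that replicates came from separate cultures, so the spread behind the p-values may be technical.

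The markers VIM, ZEB1, AXL and CD44 were above the negative controls in the MDA-MB-231 control arrays, and ESR1, PGR and CDH1 were below them. EPCAM, counted among the markers that are low in this line, was above them (6.47 against 5.88). VIM (15.2), ZEB1 (7.23), AXL (13.9) and CD44 (11.1) were also above the negative controls in the control arrays titled MCF10. By this measure they do not separate the lines, though each was higher in the MDA-MB-231 controls (16.9, 12.1, 15.4 and 11.7). In the untreated and DMSO arrays titled MCF10, KRT5 averaged 9.29 and ITGB4 15.3 on the log2 scale. In the MDA-MB-231 controls KRT5 was below the negative controls (4.53), but ITGB4 was above them (10.5). On the arrays titled MCF10, CDH1, EPCAM and KRT14 were below the negative controls, so the name of that line is in doubt. The Maraviroc IC50 arrays stood apart: their positive controls had a median log2 signal of 11.99 and 12.01, against 12.41 to 12.85 on the other MDA-MB-231 arrays, and the 75th percentile of their negative controls lay at 6.42 and 6.46, against 5.64 to 6.27. The part of that shift in the differences below was not tested. A histone gene was called above background where its group mean exceeded that percentile of the negative controls. By this measure 50 of the 61 genes were above background in ethanol, 48 in DMSO and 40 in every MDA-MB-231 group, and 10 were below it in every MDA-MB-231 group.

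Promoter sequences from RefSeq were available for 57 of the 61 genes. The 250 bases before each start were searched on both strands for the octamer ATTTGCAT, known from H2B promoters, for CCAAT and for TATAAA. The octamer was found in 14 of 17 H2B and 8 of 13 H2A promoters and in no H1, H3 or H4 promoter searched (22 of 57, 38.6%, against 1.66% of all 27305 promoters). CCAAT was found in all searched promoters of H1 (6), H2A (13), H2B (17) and H3 (8) but in 3 of 13 for H4 (47 of 57, 82.5%, against 33.0% of all promoters). TATAAA was found in 39 of 57 (68.4%, against 11.1% of all promoters). The promoters below are those of genes with large log2 differences under Maraviroc at IC50 in each class, and of H4C11, whose signal differed little. Capitals mark matches to the motifs, read on either strand, and neighbouring or overlapping matches form a single capital run. The windows, in GRCh38.p14, are chr6:26056471-26056720 (minus strand) for H1-2, chr6:27132793-27133042 (plus strand) for H2AC11, chr6:27814772-27815021 (plus strand) for H2BC14, chr6:26032100-26032349 (minus strand) for H3C2, chr1:149861160-149861409 (minus strand) for H4C15 and chr6:27823842-27824091 (plus strand) for H4C11.
H1-2: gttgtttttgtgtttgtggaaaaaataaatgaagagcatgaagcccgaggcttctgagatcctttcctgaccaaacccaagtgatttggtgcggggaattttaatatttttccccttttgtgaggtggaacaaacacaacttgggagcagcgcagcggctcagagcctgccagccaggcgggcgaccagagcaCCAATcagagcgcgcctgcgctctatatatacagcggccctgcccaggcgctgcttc
H2AC11: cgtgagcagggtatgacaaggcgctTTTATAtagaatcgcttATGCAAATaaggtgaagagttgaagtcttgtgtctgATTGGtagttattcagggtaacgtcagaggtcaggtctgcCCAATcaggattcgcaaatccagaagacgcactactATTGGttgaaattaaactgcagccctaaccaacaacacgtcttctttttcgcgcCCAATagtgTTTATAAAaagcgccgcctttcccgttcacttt
H2BC14: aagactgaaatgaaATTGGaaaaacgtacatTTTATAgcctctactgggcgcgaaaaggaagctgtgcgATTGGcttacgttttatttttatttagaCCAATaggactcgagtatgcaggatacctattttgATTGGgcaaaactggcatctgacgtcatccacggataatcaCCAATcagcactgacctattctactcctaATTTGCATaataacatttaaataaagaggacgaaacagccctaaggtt
H3C2: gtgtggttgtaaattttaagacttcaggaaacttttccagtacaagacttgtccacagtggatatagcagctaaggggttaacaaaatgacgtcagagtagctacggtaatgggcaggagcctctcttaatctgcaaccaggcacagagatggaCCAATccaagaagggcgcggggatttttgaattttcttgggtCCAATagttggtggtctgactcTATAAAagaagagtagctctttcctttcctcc
H4C15: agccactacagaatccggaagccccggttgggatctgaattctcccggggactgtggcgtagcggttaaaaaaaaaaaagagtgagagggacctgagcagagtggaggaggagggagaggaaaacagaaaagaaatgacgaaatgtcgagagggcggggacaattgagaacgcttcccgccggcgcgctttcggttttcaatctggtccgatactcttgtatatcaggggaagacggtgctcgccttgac
H4C11: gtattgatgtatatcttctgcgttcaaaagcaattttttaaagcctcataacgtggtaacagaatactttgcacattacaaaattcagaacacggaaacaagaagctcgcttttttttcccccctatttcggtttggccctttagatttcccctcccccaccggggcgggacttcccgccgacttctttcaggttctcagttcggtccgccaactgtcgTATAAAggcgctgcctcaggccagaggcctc

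The H2BC14 window holds an octamer near the start and 5 CCAAT matches, and the H2AC11 window holds an octamer, 4 CCAAT and 3 TATAAA matches. The 2 H4 windows hold no CCAAT. Each motif occurred among genes that fell under Maraviroc at IC50 and among genes that did not pass the test. The octamer was in 16 of 36 that fell and 6 of 21 that did not, CCAAT was in 32 of 36 and 15 of 21, and TATAAA in 24 of 36 and 15 of 21. A match is a description of the letters, and no test of the difference was made.

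In MDA-MB-231 cells treated with Maraviroc at IC50, most replication-dependent histone genes fell. Of the 61 genes, 39 fell and none rose at an adjusted p under 0.05 in limma, against 15% of all genes lower and 12% higher. The median log2 difference from ethanol was -1.62 over the 61 genes and 0.11 over all genes. Among the 39, 25 fell by at least 4-fold, 12 by between 2-fold and 4-fold and 2 by less than 2-fold. In 52 of 61 genes both Maraviroc IC50 arrays lay below both ethanol arrays, as they did for 25.7% of all genes. With each array centred on its median, the median of all genes shifted to 0.28 and calls over all genes split into 3018 higher and 2308 lower, against 2122 higher and 2656 lower as deposited, while 37 histone genes fell and 1, H4C7, rose (0.87, adjusted p = 0.0362, limma). In bulk RNA, fewer cells in S phase and less histone mRNA per cell cannot be told apart.

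**Figure D1:**
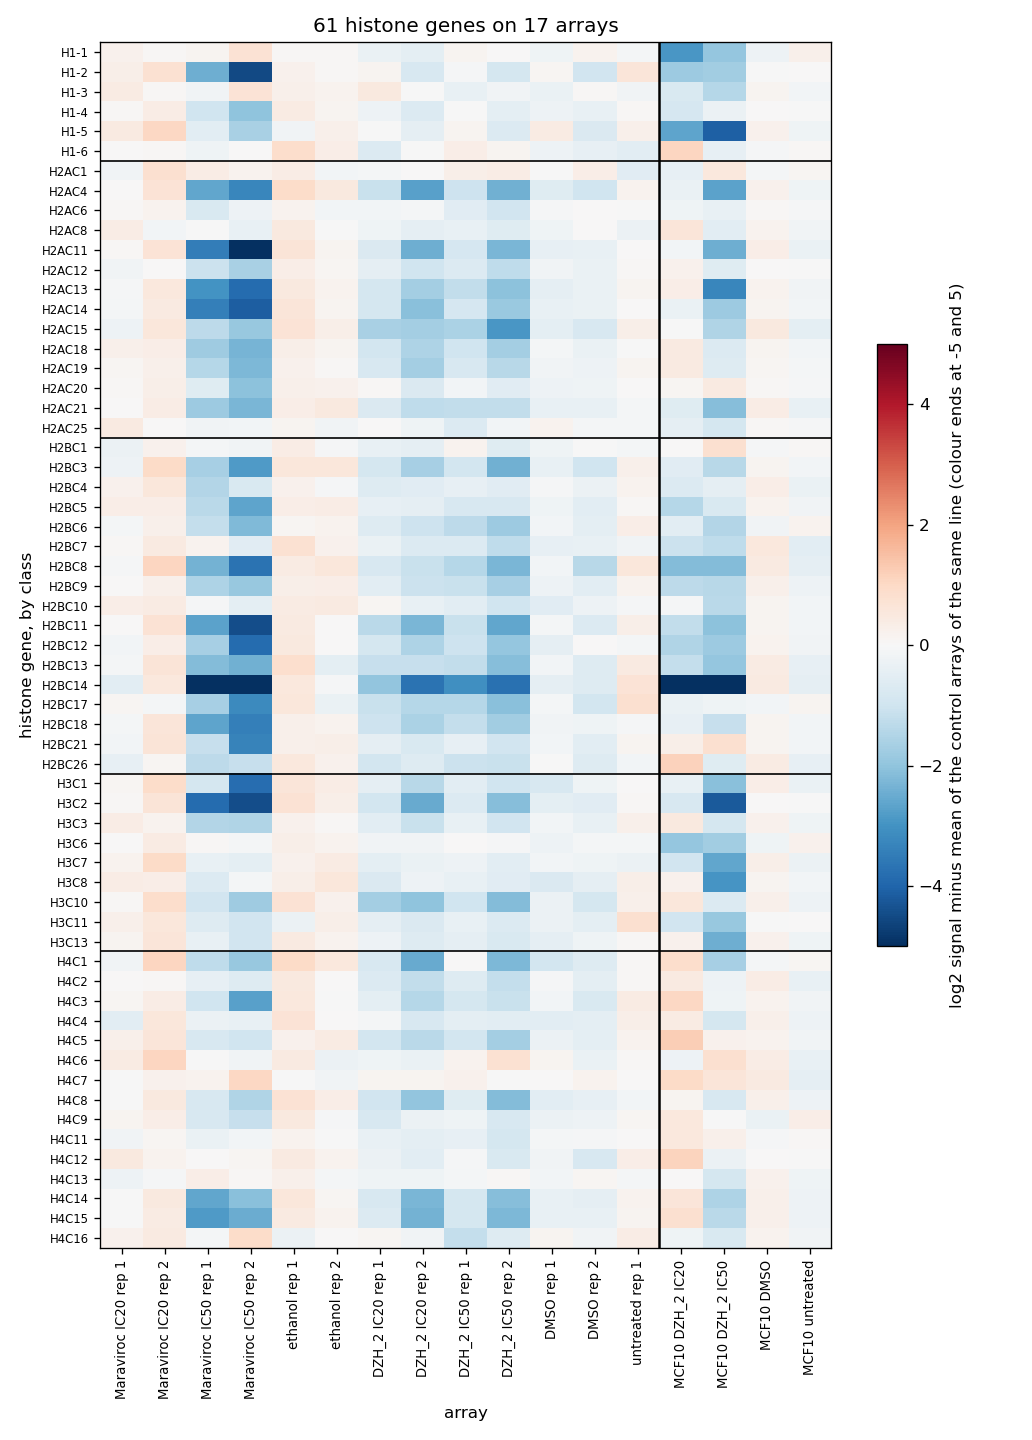
Log2 signal of each of the 61 histone genes (rows, by class) on each of the 17 arrays (columns), shown as the difference from the mean of the control arrays of the same line, with colour ending at -5 and 5. In 52 of 61 rows both Maraviroc IC50 columns are lower than both ethanol columns, and the H2BC14 row reaches the end of the scale.

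Of the 17 H2B genes, which code for a core histone that pairs with H2A, 14 fell, with a median log2 difference of -2.46 over the 17. H2BC14 had log2 signals of 9.09 and 6.29 with Maraviroc at IC50, against 14.96 and 14.37 in ethanol. The arrays did not overlap, the lower Maraviroc array lay under the 75th percentile of its negative controls, and the log2 difference was -6.97 ± 0.74 (SE, n = 2 each; adjusted p = 3.32e-05, limma). H2BC18 had 13.59 and 12.78 with Maraviroc at IC50, against 16.47 and 16.40 in ethanol. Both treated arrays were clearly lower, by -3.25 ± 0.35 on the log2 scale (adjusted p = 3.43e-05, limma). H2BC9 had 7.95 and 7.60 with Maraviroc at IC50, against 9.79 and 9.84 in ethanol, again without overlap (-2.04 ± 0.29, adjusted p = 0.000246, limma). The 3 H2B genes that did not pass were H2BC1, the testis form of H2B, H2BC7 and H2BC10.

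Of the H2A genes, which code for the partner of H2B in the nucleosome, 10 of 14 fell, with a median log2 difference of -2.04. H2AC13 had log2 signals of 13.30 and 12.46 with Maraviroc at IC50, against 16.78 and 16.48 in ethanol. All values were far above background and the groups did not overlap (-3.75 ± 0.38, adjusted p = 2.52e-05, limma). H2AC14 had 13.95 and 13.23, against 17.96 and 17.50 in ethanol, a difference of -4.14 ± 0.44 (adjusted p = 3.01e-05, limma). H2AC21 had 11.46 and 11.01 with Maraviroc at IC50, against 13.63 and 13.76 in ethanol (-2.46 ± 0.27, adjusted p = 4.39e-05, limma). For all 3 genes the arrays within each group lay within 1 log2 unit of each other, and the treated arrays were more than 2 units lower. H2AC1, the testis form of H2A, H2AC6, H2AC8 and H2AC25 did not pass.

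Of the H3 genes, which code for a core histone that carries many of the regulatory tail modifications, 6 of 9 fell, with a median log2 difference of -0.98. H3C2 had log2 signals of 10.88 and 10.27 with Maraviroc at IC50, against 15.42 and 15.01 in ethanol (-4.64 ± 0.51, adjusted p = 4.3e-05, limma). H3C3 had 6.85 and 6.79, against 8.52 and 8.36 in ethanol (-1.62 ± 0.29, adjusted p = 0.00119, limma), and H3C10 had 9.19 and 8.37, against 10.84 and 10.34 (-1.81 ± 0.43, adjusted p = 0.00758, limma). No treated array of these 3 genes reached an ethanol array. H3C6, H3C7 and H3C11 did not pass.

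Linker histone H1 binds the DNA that enters and leaves the nucleosome, and only H1-2 and H1-4 of its 6 genes fell. H1-2 had log2 signals of 10.48 and 8.42 with Maraviroc at IC50, against 13.13 and 12.998 in ethanol. The 2 treated arrays were more than 2 log2 units apart, yet both were lower (-3.62 ± 0.58, adjusted p = 0.000562, limma). H1-4 had 16.78 and 15.77, against 18.22 and 17.94 in ethanol (-1.80 ± 0.34, adjusted p = 0.00172, limma). H1-6, the testis linker histone, had 6.76 and 6.996 with Maraviroc at IC50, against 7.88 and 7.31 and did not pass (-0.72 ± 0.29, adjusted p = 0.089, limma).

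The H4 genes, which code for the partner of H3, were divided, with 7 of 15 genes falling and a median log2 difference of -0.78. H4C15 had log2 signals of 11.71 and 12.06 with Maraviroc at IC50, against 14.99 and 14.68 in ethanol (-2.95 ± 0.50, adjusted p = 0.000877, limma). Its duplicate H4C14 had 12.08 and 12.60, against 15.26 and 14.79 (-2.68 ± 0.48, adjusted p = 0.00126, limma). H4C3 had 15.75 and 14.06, against 17.30 and 16.73 in ethanol. Its treated arrays spread widely but stayed lower (-2.11 ± 0.48, adjusted p = 0.00596), and the call was lost when the compared groups were fitted alone (adjusted p = 0.055, limma).

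The remaining H4 genes include a pair with strong signal and little difference, singled out after their values were seen. H4C11 had log2 signals of 15.83 and 16.03 with Maraviroc at IC50, against 16.34 and 16.17 in ethanol, with a log2 difference of -0.33 (95% interval -0.88 to 0.23; adjusted p = 0.396, limma). H4C12 had 11.77 and 11.86, against 12.22 and 11.93 (-0.26, interval -0.93 to 0.40, adjusted p = 0.577). For both genes the treated arrays lay below the ethanol arrays by fractions of a unit, and the interval ends above a 2-fold fall. In total 22 genes did not pass: 8 were below background in every MDA-MB-231 group (H1-1, H2AC1, H2AC8, H2BC1, H2BC10, H3C6, H4C7 and H4C13), and 14 were above it in at least some groups. Of the 39 that fell, 37 were above background in ethanol. In 6 of these (H2AC12, H2BC4, H2BC8, H2BC13, H2BC17 and H4C9) the Maraviroc IC50 mean was under background, so the size of their fall is not resolved. H2BC26 and H3C8 were under background in ethanol too.

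**Figure D2:**
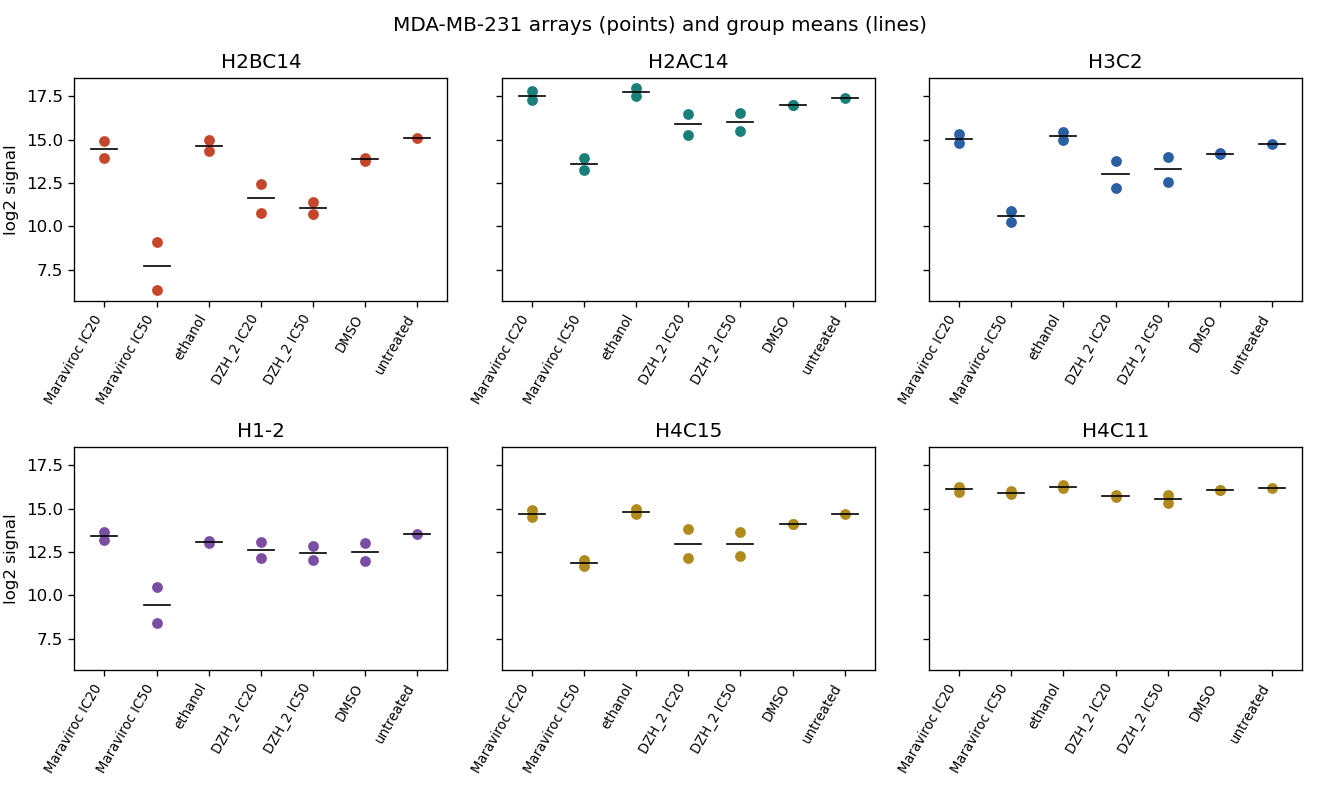
Log2 signal on every MDA-MB-231 array for leading genes of the classes, with each point an array and each line the mean of its group. Both Maraviroc IC50 arrays lie below both ethanol arrays in every panel, by a mean of 6.97 log2 units for H2BC14 and 0.33 for H4C11.

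By position, all 9 genes of the larger chromosome 1 run (H2BC18 to H2AC21) fell, with a median log2 difference of -2.46. On chromosome 6, 17 of the 32 genes from H2AC1 to H4C8 fell (median -0.99), all 5 from H2BC11 to H2AC12 fell (median -3.01), and 7 of the 12 from H2BC13 to H2BC17 fell (median -1.95). H4C16 on chromosome 12 had a log2 difference of 0.54 and did not pass. Neighbours can share sequence as well as position, so the runs are not independent of the near-identical mRNAs.

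At IC20 Maraviroc gave no histone gene past the threshold. None of the 61 passed in limma against ethanol, against 0% of all genes, and none reached an unadjusted p under 0.05, while 309 of all genes did. The median log2 difference was -0.02. The smallest p belonged to H1-6, with 7.01 and 7.03 at IC20 against 7.88 and 7.31 in ethanol (-0.58, 95% interval -1.21 to 0.05). H4C6 had 5.63 and 6.29, against 5.68 and 4.91 (0.67, interval -0.07 to 1.40). H2BC26 had 4.91 and 5.39, against 5.85 and 5.53, and H1-5 had 7.48 and 8.09, against 6.85 and 7.28. All 4 intervals include 0, and H2BC26 was under background. Only 4 of 61 genes had both IC20 arrays below both ethanol arrays, as did 15.2% of all genes.

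Within Maraviroc, IC50 set against IC20 gave 41 genes that fell and none that rose, against 14.8% of all genes lower, with a median log2 difference of -1.74. H2AC13 had 13.30 and 12.46 at IC50, against 16.24 and 16.84 at IC20 (-3.66 ± 0.38, adjusted p = 3.16e-05, limma). H2BC18 had 13.59 and 12.78, against 16.11 and 16.81 (-3.27 ± 0.35, adjusted p = 3.3e-05, limma). The doses did not overlap in either gene. The calls over all genes were 2109 higher and 2610 lower as deposited, and 2907 higher and 2234 lower with arrays centred on their median. Without Maraviroc IC20 replicate 2, 26 histone genes fell and none rose, and without Maraviroc IC50 replicate 1, 41 fell and 1, H4C7, rose.

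**Figure D3:**
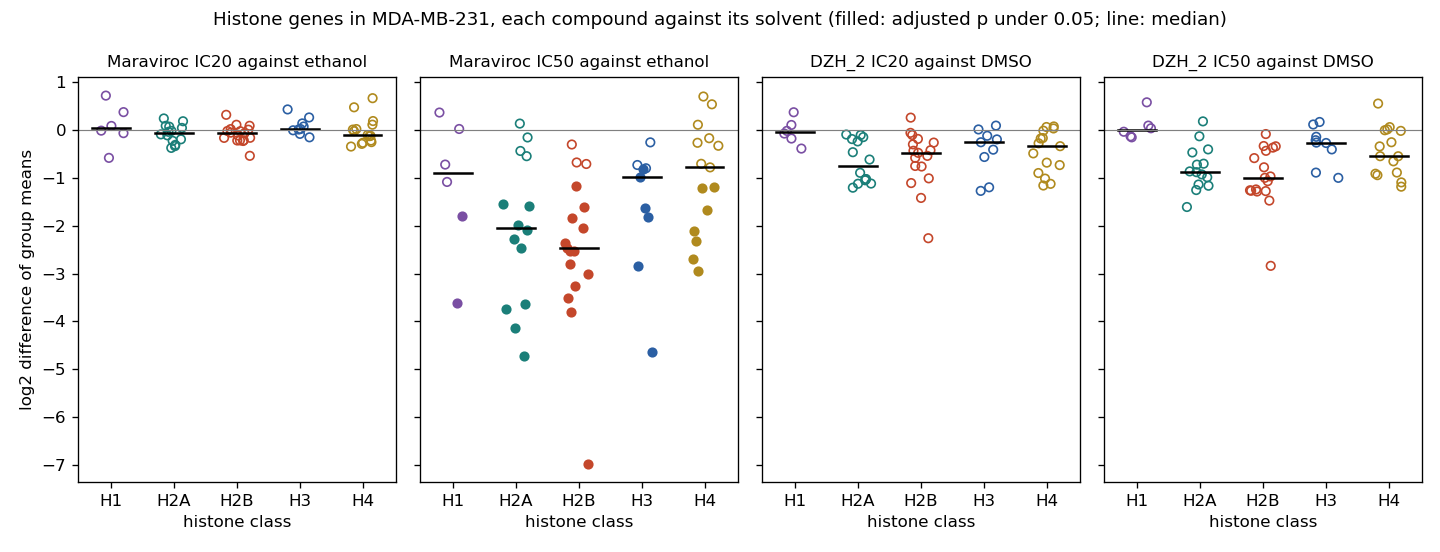
Log2 differences of the 61 genes by class for each compound and dose against its solvent, with a point for each gene and a bar for the class median. H2A and H2B lie lowest under Maraviroc at IC50 (medians -2.04 and -2.46), and Maraviroc at IC20 is centred near 0.

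With DZH_2 most histone genes had lower signal, but none passed the test against DMSO. At IC50 none of 61 passed in limma, against 1.57% of all genes (0.984% lower), with 22 of 61 at an unadjusted p under 0.05 (36.1%, against 15.1% of all genes). The median log2 difference was -0.55, against 0.04 for all genes, and 52 of 61 differences were negative. At IC20 none passed, against 0.871% of all genes, with 15 at an unadjusted p under 0.05, a median of -0.41 and 53 negative differences. Both arrays lay below both DMSO arrays in 36 genes at IC50 (23.5% of all genes) and in 35 at IC20 (22.2% of all genes). For IC50 the calls over all genes were 103 higher and 174 lower as deposited, and 113 higher and 109 lower after quantile normalization. At IC50 the median was -0.87 for H2A and -0.997 for H2B, against 0.0026 for H1, a difference between classes that was not tested. The IC50 median was -0.28 without DZH_2 IC50 replicate 2 and -0.92 against all 5 control arrays, and the IC20 median was -0.25 without DZH_2 IC20 replicate 2 and -0.73 against all 5 control arrays.

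The H2B gene H2BC14 had log2 signals of 12.47 and 10.76 with DZH_2 at IC20 and 11.37 and 10.70 at IC50, against 13.97 and 13.78 in DMSO. All 4 treated arrays were lower, by -2.26 ± 0.74 at IC20 (adjusted p = 0.205) and -2.84 ± 0.74 at IC50 (adjusted p = 0.0795, limma). H2BC18 had 15.20 and 14.62 at IC20 and 15.02 and 14.48 at IC50, against 16.02 and 16.01 in DMSO. Its arrays did not overlap either (-1.11 and -1.27; adjusted p = 0.177 and 0.0911, limma).

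H2AC15 had 7.14 and 7.06 at IC20 and 7.20 and 5.84 at IC50, against 8.29 and 7.97 in DMSO, with a log2 difference at IC50 of -1.61 ± 0.42 (adjusted p = 0.0779, limma). H2BC6 had 7.15 and 6.65 at IC50, against 8.33 and 7.98 (-1.26 ± 0.34, adjusted p = 0.0867, limma). In the duplicated pair, H2AC18 had 14.51 and 13.89 at IC20, against 15.35 and 15.10 in DMSO, and H2AC19 had 14.39 and 13.48, against 15.04 and 14.93. The treated arrays of all 4 genes lay below the DMSO arrays, and the adjusted p was 0.168 for H2AC18 and 0.215 for H2AC19 at IC20 (limma).

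With the 2 doses of DZH_2 averaged, none of 61 passed in limma, against 3.01% of all genes (1.85% lower and 1.16% higher). At an unadjusted p under 0.05 there were 25 (41.0%, against 15.9% of all genes), and the median was -0.45. The smallest adjusted p-values lay just past the threshold, at 0.0532 for H2AC18 (-1.08), 0.0536 for H2BC14 (-2.55), 0.0546 for H2BC18 (-1.19) and 0.0744 for H2AC15 (-1.32, limma). The count depended on which arrays served as controls. With ethanol, DMSO and untreated arrays as 1 group of 5, the count that fell was 15 at IC50 (2.21% of all genes lower), 6 at IC20 (1.36%) and 27 for both doses (3.85%), with none that rose. Without the Maraviroc IC50 arrays, which share the estimate of spread, it was 5, 1 and 9. Over all genes that setting gave 534, 277 and 674 lower of 17687, so the count at IC20 was near the share of all genes. Between the DZH_2 doses no histone gene passed in limma, against 0% of all genes, and 3 had an unadjusted p under 0.05 (4.92%, against 4.08% of all genes). H4C16 had 5.46 and 5.98 at IC50, against 6.72 and 6.47 at IC20 (-0.88), and H2AC6 had 7.97 and 7.58, against 8.39 and 8.41 (-0.63).

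Most histone genes had higher signal in ethanol than in DMSO, although no single gene passed. None of 61 passed for ethanol against DMSO in limma (0% of all genes), with 17 at an unadjusted p under 0.05 (27.9%, against 7.64% of all genes). Still, 57 were higher in ethanol, with a median of 0.61 against 0.0053 for all genes. Both ethanol arrays lay above both DMSO arrays in 46 genes (21.2% of all genes). H3C8 had 4.81 and 5.08 in ethanol, against 3.80 and 4.07 in DMSO (1.01 ± 0.28, adjusted p = 0.511), under background throughout. H1-6 had 7.88 and 7.31, against 6.71 and 6.56 (0.96 ± 0.29, adjusted p = 0.535, limma). The array median of the 61 genes was 9.45 and 9.07 in ethanol, 8.45 and 8.15 in DMSO and 9.05 in untreated cells. Differences from ethanol and from DMSO therefore start from different levels.

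Set side by side, the compounds differed at IC50 in their differences from solvent. The difference from solvent with DZH_2, minus that with Maraviroc, was positive at an adjusted p under 0.05 in 11 of 61 genes and negative in none (limma), against 4.02% of all genes higher, 2.15% lower and 6.17% either way. A positive value means a less negative difference with DZH_2. The gap between the solvents (median 0.61 for ethanol against DMSO) enters this value directly, and its part was not tested. The median of this difference was 0.94, and 53 of 61 genes had the more negative difference with Maraviroc. For H3C2, DZH_2 at IC50 gave 14.03 and 12.59, against 14.22 and 14.16 in DMSO, and Maraviroc at IC50 gave 10.88 and 10.27, against 15.42 and 15.01 in ethanol. The difference of the differences was 3.75 ± 0.73 (adjusted p = 0.0097, limma). For H2AC14, DZH_2 at IC50 gave 16.53 and 15.51, against 16.98 and 17.02 in DMSO, a difference of the differences of 3.15 ± 0.62 (adjusted p = 0.0102, limma). The others were H1-2, H1-4, H2AC4, H2AC11, H2AC13, H2AC21, H2BC5, H2BC14 and H2BC18, at 1.60 to 4.14. H1-2 differed from DMSO by -0.03 and H1-4 by 0.04 with DZH_2 at IC50.

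The compound difference rests on few arrays. The median difference of the differences was 1.18 without Maraviroc IC50 replicate 1 and 0.70 without replicate 2. It was 0.78 without DZH_2 IC50 replicate 1 and 1.36 without replicate 2. Without DMSO replicates 1 and 2 it was 1.15 and 0.89, and without ethanol replicates 1 and 2 it was 0.86 and 1.07. Without DZH_2 IC50 replicate 1 or ethanol replicate 1, histone genes passed no more often than all genes, counting either direction. Over all genes the calls were 711 higher and 380 lower as deposited, and 616 higher and 524 lower with arrays centred on their median. At IC20 no histone gene passed (0% of all genes), with 3 at an unadjusted p under 0.05 (4.92%, against 7.20% of all genes). The median at IC20 was -0.46. That median was -0.20 without DZH_2 IC20 replicate 2, -0.28 without Maraviroc IC20 replicate 2 and -0.30 without ethanol replicate 2, and reached -0.66 without DZH_2 IC20 replicate 1. H2AC18 (-1.10, 95% interval -2.06 to -0.13) and H2BC18 (-1.13, interval -2.19 to -0.06) had the smallest p-values. Across the 61 genes the IC50 differences of the 2 compounds, which share no array, had a Pearson correlation of 0.719 and a Spearman correlation of 0.692, against a Pearson correlation of 0.549 over all genes. Genes of 1 family are not independent points.

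**Figure D4:**
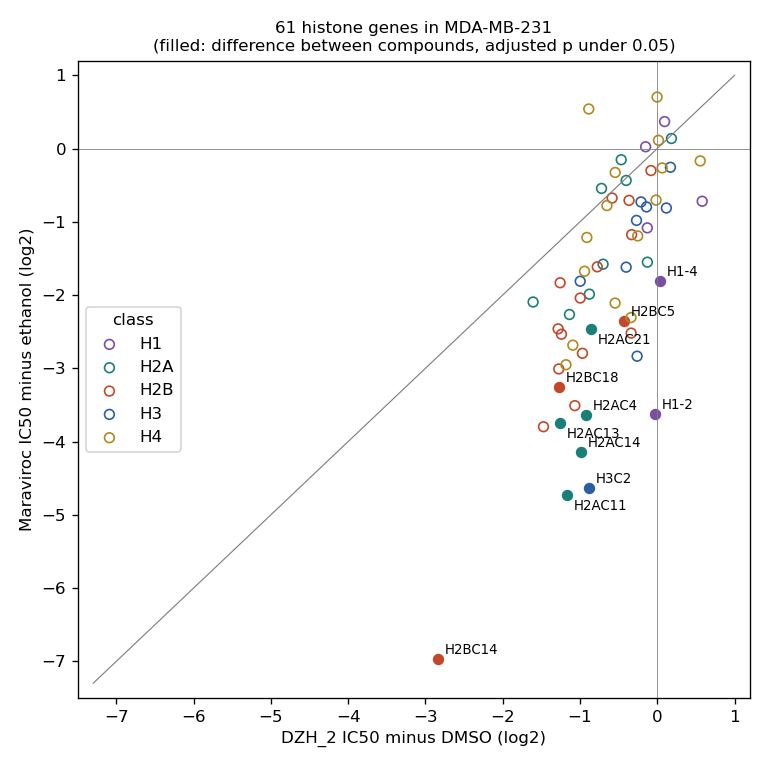
Log2 difference of each histone gene with DZH_2 at IC50 against DMSO (horizontal axis) and with Maraviroc at IC50 against ethanol (vertical axis), with the line of equal values. Most of the 61 points lie below the line, and the 11 filled points, among them H2BC14, H3C2 and H1-2, passed the test of the difference.

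Genes that make, process or handle histones were counted beside all genes, of which 12% were higher and 15% lower with Maraviroc at IC50 (median 0.11) and 1.16% higher and 1.85% lower with both DZH_2 doses (median 0.02). Of 33 measured genes for histone transcription and 3' end processing, 5 rose and 9 fell with Maraviroc at IC50 (median -0.68), and the number that rose is near the share of all genes. CCNA2, the S phase cyclin, fell (-5.25), as did its partner kinase CDK2 (-2.80) and GON4L (-2.38), while HINFP, a transcription factor for H4 promoters, rose by 2.58 on the log2 scale. With both DZH_2 doses 4 fell and none rose: NPAT (-1.41), CDK2 (-1.42), the exonuclease ERI1 (-1.34) and the cleavage factor CPSF3 (-1.17). Of 26 chaperone and deposition genes, 16 fell with Maraviroc at IC50 (median -1.48), including the centromeric chaperone HJURP (-4.41), the helicase subunit MCM2 (-4.37), the acetyltransferase HAT1 (-3.22) and the assembly factor CHAF1A (-3.08). With both DZH_2 doses 3 fell: HAT1 (-2.11), MMS22L (-1.51) and HJURP (-1.24).

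Replication-independent variants, which are made outside S phase as well, were split. Of 10 measured, 4 fell and 1 rose with Maraviroc at IC50: the DNA damage variant H2AX (-3.19), the centromeric variant CENPA (-2.15) and H2AZ1 (-1.12) were among those that fell, and H3-3B, which codes for the replacement H3, rose by 1.41. H2AZ1 fell with both DZH_2 doses (-1.23). Of 6 histone genes with polyadenylated transcripts reported elsewhere, 5 fell with Maraviroc at IC50 (median -2.44). Of 17 S phase genes, 16 fell with Maraviroc at IC50 (median -3.43) and 12 with both DZH_2 doses (median -2.06), with PRIM1, the primase subunit, at -4.83 and -2.76 and POLA1, the polymerase alpha subunit, at -3.26 and -1.88. Whether the histone genes differ from these genes in their response to DZH_2 was not tested.

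By array, the median signal of the S phase genes moved with that of the histone genes in part, and its part in their differences was not tested. With Maraviroc at IC50 it was 6.81 and 6.47, against 10.85 and 10.76 in ethanol, while the histone median was 7.49 and 7.22, against 9.45 and 9.07. With DZH_2 at IC20 and IC50 replicate 2 was lower than replicate 1 in both medians: S phase genes had 9.52 and 7.81 at IC20 and 9.24 and 7.94 at IC50, and the histone genes had 8.27 and 7.50 and 7.97 and 7.36. In DMSO the S phase median was 11.13 and 10.73, near the ethanol values, while the histone medians differed. The replicate spread of the histone genes was wider in the treated groups than in ethanol and in DMSO (root mean square SD 0.291 in each). It was 0.723 with Maraviroc at IC50, 0.394 with Maraviroc at IC20, 0.564 with DZH_2 at IC50 and 0.527 with DZH_2 at IC20. Over all genes the SD was 0.546, 0.277, 0.338 and 0.366 in the same order, against 0.327 in ethanol and 0.285 in DMSO. The spread over all genes was thus wider too, though less so, except with Maraviroc at IC20, where it was below both solvents.

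On the arrays titled MCF10 each group was a single array, so no test was possible and genes are counted past a 2-fold difference. With DZH_2 at IC20, 14 of 61 genes were lower and 3 higher than in DMSO (12.8% and 11.6% of all genes). At IC50, 36 were lower and none higher (8.83% and 9.38% of all genes), with a median of -1.27, and between the doses 27 were lower at IC50 and 1 higher (7.95% and 9.76% of all genes). At both doses 12 genes were lower and none higher (4.88% and 4.52% of all genes, 9.41% either way). The untreated array was lower than DMSO by 2-fold in 1 gene, but 49 of its 61 differences were negative, with a median of -0.34. The IC20 differences had a median of -0.32, with 36 negative, so as a set they were no lower than those of the untreated array.

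H2BC14 had log2 signals of 7.22 at IC20 and 6.75 at IC50, against 13.13 in DMSO and 12.25 in untreated cells. H1-5, a linker histone, had 10.93 and 9.48, against 13.77 in DMSO and 13.35 in untreated cells, and H2BC8 had 10.32 and 10.34, against 12.95 and 12.02. All 3 genes were at least 4-fold lower at both doses than in DMSO. The highest mean differences from DMSO were 0.58 for H4C9, 0.54 for H4C5 and 0.48 for H2BC1. H4C9 had 7.53 and 6.99, against 6.68 in DMSO and 7.33 in untreated cells. Its untreated array thus differed from DMSO by 0.65, more than the mean of the DZH_2 doses. H4C5 had 17.64 and 16.61, against 16.58 in DMSO and 16.24 in untreated cells. H2BC1 had 5.01 and 5.80, against 4.93 and 5.05. H2BC1 was under background. By class, the genes lower at IC50 were 4 of 6 for H1, 6 of 14 for H2A, 12 of 17 for H2B, 8 of 9 for H3 and 6 of 15 for H4. Between the doses H3C2 (-3.42) and H2AC13 (-3.61) were among the most different, with H2AC13 at 15.79 at IC20 and 12.18 at IC50, against 15.61 in DMSO.

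Between the controls of the lines, part of the histone genes differed in level, and with no test these are descriptions. Above background were 56 of 61 genes in DMSO on the array titled MCF10 and 48 in DMSO on the MDA-MB-231 arrays. Their 2 control arrays (DMSO and untreated) differed from the 5 MDA-MB-231 control arrays by at least 2-fold with no overlap in 36 genes, 18 higher and 18 lower (11.2% and 23.2% of all genes, 34.4% either way). H2AC8 had 14.18 and 13.83 in the controls titled MCF10, against 3.86 to 4.64 in MDA-MB-231 controls, where it was under background. H4C5 had 16.58 and 16.24, against 7.69 to 8.59, and H1-5 had 13.77 and 13.35, against 6.30 to 7.46. These 3 genes were far apart in the lines, at 9.87, 8.23 and 6.52 on the log2 scale, with H3C8 (6.30), H3C11 (5.53) and H2BC8 (5.38) next. Lower in the controls titled MCF10 were H2BC17 (-2.87), H1-2 (-2.38) and H2BC3 (-2.29). The arrays titled MCF10 had positive controls at a median of 11.01 to 11.54 and a narrower spread of signals, with an interquartile range over genes of 3.34 to 3.62, against 4.21 to 4.65 on the MDA-MB-231 arrays other than Maraviroc IC50.

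**Figure D5:**
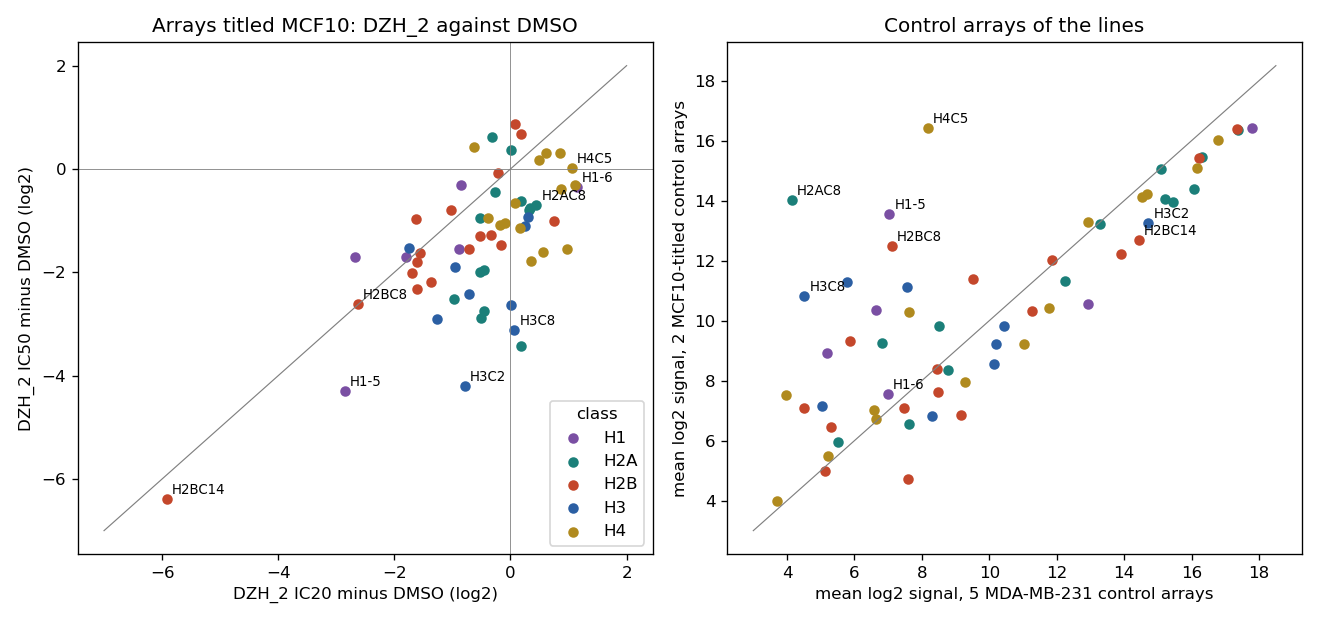
Left, log2 difference of each histone gene from DMSO with DZH_2 at IC20 (horizontal axis) and IC50 (vertical axis) on the arrays titled MCF10. Right, mean log2 signal of each gene in the control arrays titled MCF10 (vertical axis) and in the MDA-MB-231 control arrays (horizontal axis), with the line of equal values. H2BC14 (-5.92 and -6.38) is lowest on the left, and H2AC8, H4C5 and H1-5 lie farthest from the line on the right.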

How the data were processed

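RNA of human cell lines was measured on 17 Affymetrix arrays, and per the labels total RNA was extracted with Trizol and labelled with the GeneChip WT PLUS kit. The authors deposited log2 signals, 24351 probe sets to an array. Their summarisation, background correction and normalization were not given in the sources used here; they were not rescaled. Of the probe sets, 17709 had exactly 1 gene symbol, matched by Entrez identifier to RefSeq, 2903 were controls and 3739 were without a gene. Where a gene had more than 1 probe set (20 genes), the brightest was taken, which left 17687 genes. Chromosomes of genes come from RefSeq, and only RefSeq promoters carry coordinates, since no source used here names the array's genome build.

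Groups came from the sample titles. A single limma 3.58.1 fit (R 4.3.3) of group means covered the 12 MDA-MB-231 arrays that have a replicate, with 6 residual degrees of freedom. The 2-sided p-values were adjusted by Benjamini-Hochberg over 17687 genes, with a threshold of 0.05. Log2 differences are between means of 2 arrays, with a standard error (±) from the spread pooled over the 12 arrays. No filter on low signal was applied. Background was the 75th percentile of 612 negative control probe sets. Groups of 1 array were described by 2-fold differences without a test. The step was tested on simulated data. Precision is limited by the number of arrays.

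The histone genes and the gene lists were chosen with earlier results of these data known. Array values were given for the 3 genes of each class with the smallest p under Maraviroc at IC50, the 4 with the smallest p in each other comparison with a solvent, the 2 in every other test, and the 3 highest and 3 lowest on the arrays titled MCF10. Alternatives were quantile normalization, median centring, a replicate block, array weights, a filter on dim genes, other handling of probe sets, other sets of arrays in the fit, all 5 control arrays as 1 group, and each array left out in turn.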

Additional observations from a re-analysis of the deposited data

Results flagged for a closer look

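In 11 histone genes the response to the 2 compounds at IC50 differed in the test of the difference itself (limma, adjusted p under 0.05). The values are the log2 difference with DZH_2 from DMSO minus that with Maraviroc from ethanol. Among linker histone genes the value was 3.59 for H1-2 and 1.84 for H1-4. Among H2A genes it was 3.57 for H2AC11, 3.15 for H2AC14, 2.71 for H2AC4, 2.50 for H2AC13 and 1.60 for H2AC21. Among H2B genes it was 4.14 for H2BC14, 1.98 for H2BC18 and 1.93 for H2BC5, and H3C2 was the H3 gene, at 3.75. No H4 gene was among them. The solvents of the compounds differed in these genes too, with a median over the 61 genes of 0.61 for ethanol against DMSO, and its part in these values was not tested.

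For 2 H4 genes both DZH_2 arrays titled MCF10 lay above their DMSO array, while all 4 DZH_2 arrays of MDA-MB-231 lay below both DMSO arrays. The share of all genes that meet this rule was not counted. In MDA-MB-231, 23.5% of all genes at IC50 and 22.2% at IC20 had both DZH_2 arrays below both DMSO arrays. For H4C5 the mean of both doses minus DMSO on the arrays titled MCF10 was 0.54, made up of 1.06 at IC20 and 0.03 at IC50, beside -0.34 for untreated minus DMSO, so it rests on 1 array at IC20. For H4C11 the mean was 0.46, with 0.61 at IC20 and 0.30 at IC50, beside 0.14 for untreated minus DMSO. On the arrays titled MCF10 each group had 1 array, and the difference between the lines was not tested.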

How the results depend on the processing

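With Maraviroc at IC50 against ethanol, 30 to 42 histone genes passed across the settings that leave out an array and 31 to 40 in the other settings. All of these fell except H4C7, which rose without Maraviroc IC50 replicate 1 (1.12), with arrays centred (0.87) and with all 5 control arrays (0.60), and H4C16, which rose without Maraviroc IC50 replicate 1 (1.05). The comparison of Maraviroc doses gave 26 to 42 and that of the compounds at IC50 gave 1 to 20 when an array was left out. For DZH_2 at IC50, where none passed as reported, 1 passed with a replicate block, 7 with array weights, 4 with the compared groups alone, 5 without the Maraviroc IC50 arrays and 15 with all 5 control arrays. At IC20, 1 passed with array weights, 1 without the Maraviroc IC50 arrays and 6 with all 5 control arrays. For both doses, 2 passed with a replicate block, 9 with array weights, 3 with dim genes left out, 2 with the compared groups alone, 9 without the Maraviroc IC50 arrays, 27 with all 5 control arrays, and 0 to 3 when an array was left out. Calls over all genes rose too, except with an array left out. With a replicate block they were 126 higher and 221 lower at IC50, and 228 and 354 for both doses. With the compared groups alone they were 284 and 533, and 356 and 502. With dim genes left out they were 228 and 371 of 11746 for both doses. In these settings the histone counts were near the share of all genes. With array weights the calls over all genes were 343 and 599 at IC50, 208 and 280 at IC20, and 494 and 744 for both doses. Without the Maraviroc IC50 arrays they were 303 and 534, 218 and 277, and 457 and 674. With all 5 control arrays they were 244 and 391, 178 and 241, and 450 and 681. The IC20 count of 1 histone gene, with weights or without those arrays, was no more than the share of all genes. The cause of these shifts was not tested. Whether replicate numbers pair the arrays is not settled. Deviations of arrays with the same number correlated at -0.149 to 0.301. The highest values were 0.301 for the 2 DZH_2 doses and 0.252 for ethanol with Maraviroc IC20. The replicate block moved no other count by over 1.5 times. For H1-6 with Maraviroc at IC20 the log2 difference turned to 0.031 with all 5 control arrays. Of the values for named genes under the alternatives, 925 kept direction and side of the threshold, 56 newly passed, 49 no longer passed (45 of them with an array left out) and 1 turned. The number of arrays, the background of dim genes and shared probes of near-identical genes limit all of these.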
